A study of Mus musculus with 72 samples.

Results

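Gene expression in the livers of mice under 2 arrhythmic feeding paradigms was compared between zeitgeber time 10 (ZT10, that is 10 h after lights on, late in the light phase) and ZT22, which falls 12 h later in the dark phase. The comparison took 12 of the 72 libraries of the series, 6 at either time, and 3 of each 6 came from either paradigm. The libraries were chosen by their labels alone, and the paradigm was kept as a block, so that each gene's difference was taken within a paradigm. All groups were livers of male wild-type C57BL/6J mice from Charles River, 43 to 49 days old at the start, on 12 h of light and 12 h of dark with water at will. One paradigm is labelled arrhythmic feeding. The other is labelled as arrhythmic without full adaptation and is called incompletely adapted here. Neither the feeding schedule nor the criterion of adaptation is stated in the sources at hand. The night-restricted and ad libitum paradigms, with 6 libraries each at these times, served as comparators. The labels do not say that replicates were separate animals, so p-values measure the spread between these libraries, which may be technical.

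In the liver clock the transcription factors BMAL1 (gene Arntl) and CLOCK, or its relative NPAS2, bind E-box sequences and drive the Per and Cry genes, whose proteins repress them. The nuclear receptors REV-ERBα and REV-ERBβ (Nr1d1 and Nr1d2) repress Arntl and other genes through elements that they share with the activating ROR receptors. DBP, TEF and HLF activate genes with a D-box, a site at which the repressor E4BP4 (gene Nfil3) competes. Food intake gives the liver further daily signals, among them those that reach lipid synthesis through SREBP transcription factors.

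The 12 libraries held between 5925470 and 7859398 counts. Those of ZT10 were shallower, at 5925470 to 6271902 counts, than those of ZT22, at 6199917 to 7859398 counts (exact permutation test within paradigms, two-sided p = 0.005, the smallest its 400 regroupings can give, adjusted p = 0.015 over 3 library measures). Mitochondrial transcripts took 4.75 ± 0.899% of counts (SD, n = 6) at ZT10 and 4.66 ± 0.74% at ZT22 (exact permutation p = 0.865, adjusted p = 0.865). The trend of expression with the GC content of transcript ends ran from -0.393 to 0.295 log2 units per 10 percentage points of GC among the 12 libraries and did not differ between the times beyond their spread (exact permutation p = 0.66, adjusted p = 0.865). Hepatocyte markers such as Cyp2e1 summed to 25712 to 33488 CPM at ZT10 and 22658 to 32711 CPM at ZT22, where CPM stands for a gene's counts scaled to an equal library total. Of 6 pancreatic acinar markers 5 were at 0 in every library.

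Of 11547 genes tested, 69 were higher at ZT10 (0.598%) and 88 were lower (0.762%), together 1.36%, by edgeR's quasi-likelihood test at a Benjamini-Hochberg adjusted p under 0.05. The median log2 difference (ZT10 minus ZT22) was 1.28 over the 69 genes, -1.41 over the 88 genes and -0.03 over all genes tested. In CPM the times did not overlap for 57 of the 69 and 77 of the 88 genes, while 2.3% of all genes were without overlap. With every library thinned to 5925470 counts, 155 genes passed. When each library was left out in turn, the count ranged from 96, without replicate 2 of the incompletely adapted ZT10 group, to 242, without replicate 3 of the incompletely adapted ZT22 group, and 86 of the 157 genes passed each time. It was 108 without replicate 3 of the arrhythmic ZT10 group and 108 without replicate 2 of the arrhythmic ZT22 group.

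**Figure D1:**
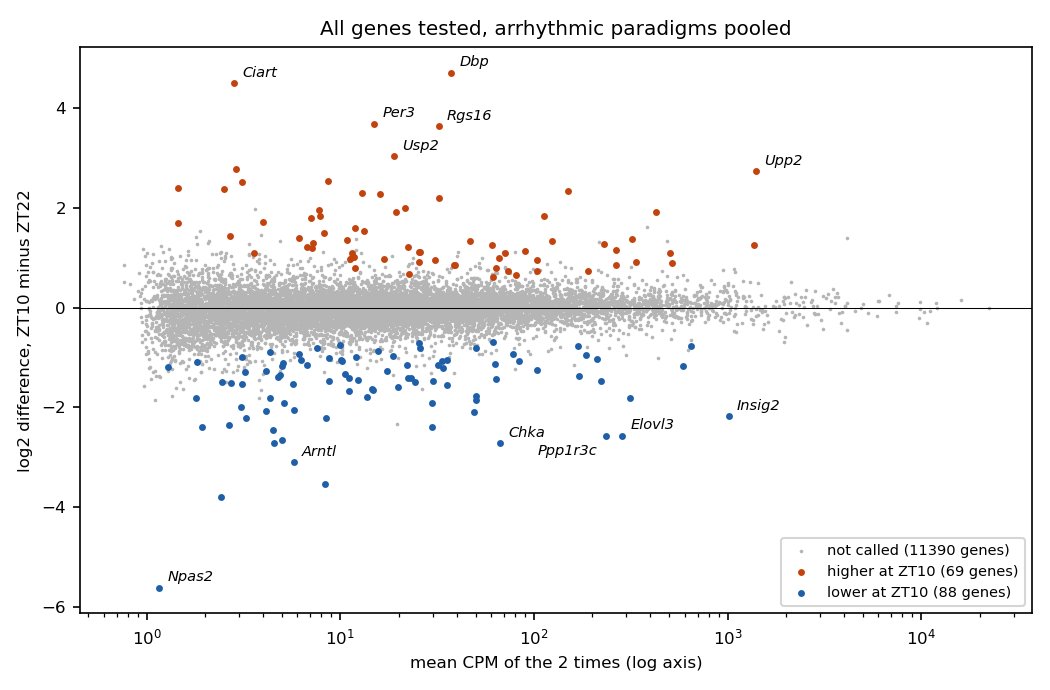
Each point is 1 of 11547 genes, placed by its mean CPM over the 2 times (log axis) and its log2 difference, ZT10 minus ZT22, with 69 genes higher at ZT10 in orange, 88 lower in blue and 11390 that did not pass in grey. The largest differences belong to clock genes, Dbp at the top and Npas2 at the bottom, and Upp2 and Insig2 stand out among abundant transcripts.

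Of the 18 core clock genes 9 were higher at ZT10, 5 were lower and 4 did not pass, where 1.36% of all genes passed, and the 14 that passed were without overlap between the times. Genes of the negative limb (Per1, Per2, Per3, Ciart, Bhlhe41, Nr1d1 and Nr1d2) and the D-box activators Dbp and Tef were high at ZT10. Genes of the positive limb (Arntl, Npas2 and Clock), Cry1 and the repressor Nfil3 were low. The median of the 18 log2 differences was 1.27.

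Of the genes that passed, 18 were looked up in the RefSeq promoter table, namely the core clock genes and the 4 clock outputs of smallest p. Of the 16 with a promoter there, 8 held an E-box, a D-box or TAGGTCA and 8 held none of them. Other outputs that passed, among them Noct, Coq10b and Leo1, were outside this lookup and enter the wider search below. The promoters of 6 clock genes are printed because each carries such an element. They come from RefSeq (GRCm38.p6) and run 5′ to 3′ along the gene's strand, from 250 bases before the annotated start to 50 bases after it, and capitals mark the element. Tef, Arntl and Per1 have 2 annotated starts there, and the start with the most elements was used. Per3 (chr4:151044616-151044915, minus strand) holds the D-box TTATGNAA in 2 copies. Tef (chr15:81802423-81802722, plus strand), Ciart (chr3:95882179-95882478, minus strand) and Bhlhe41 (chr6:145865371-145865670, minus strand) hold the E-box CACGTG, Ciart in 3 copies. Nfil3 (chr13:52980990-52981289, minus strand) and Arntl (chr7:113207261-113207560, plus strand) hold TAGGTCA, the core of the element bound by REV-ERB and ROR receptors, on one strand or the other.
Per3: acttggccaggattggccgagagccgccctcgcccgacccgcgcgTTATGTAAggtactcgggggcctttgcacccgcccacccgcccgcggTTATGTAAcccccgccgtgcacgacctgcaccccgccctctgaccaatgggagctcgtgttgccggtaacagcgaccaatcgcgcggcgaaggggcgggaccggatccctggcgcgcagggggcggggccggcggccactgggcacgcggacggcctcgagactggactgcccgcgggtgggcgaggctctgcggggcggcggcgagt
Tef: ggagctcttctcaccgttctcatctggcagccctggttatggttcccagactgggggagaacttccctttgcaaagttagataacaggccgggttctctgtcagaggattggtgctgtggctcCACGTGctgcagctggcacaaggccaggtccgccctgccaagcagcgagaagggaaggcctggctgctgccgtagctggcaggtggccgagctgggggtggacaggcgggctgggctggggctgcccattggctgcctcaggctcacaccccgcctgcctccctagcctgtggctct
Ciart: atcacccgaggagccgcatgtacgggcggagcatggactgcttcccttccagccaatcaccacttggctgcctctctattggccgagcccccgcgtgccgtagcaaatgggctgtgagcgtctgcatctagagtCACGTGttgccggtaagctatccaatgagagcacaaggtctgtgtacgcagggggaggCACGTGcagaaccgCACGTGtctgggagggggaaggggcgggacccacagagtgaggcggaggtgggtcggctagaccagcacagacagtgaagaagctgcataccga
Bhlhe41: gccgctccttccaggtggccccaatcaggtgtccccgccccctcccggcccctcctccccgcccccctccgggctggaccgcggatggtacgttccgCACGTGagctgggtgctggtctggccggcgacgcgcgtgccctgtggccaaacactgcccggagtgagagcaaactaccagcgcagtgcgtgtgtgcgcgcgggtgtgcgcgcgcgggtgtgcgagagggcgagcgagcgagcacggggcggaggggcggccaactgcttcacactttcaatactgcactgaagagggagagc
Nfil3: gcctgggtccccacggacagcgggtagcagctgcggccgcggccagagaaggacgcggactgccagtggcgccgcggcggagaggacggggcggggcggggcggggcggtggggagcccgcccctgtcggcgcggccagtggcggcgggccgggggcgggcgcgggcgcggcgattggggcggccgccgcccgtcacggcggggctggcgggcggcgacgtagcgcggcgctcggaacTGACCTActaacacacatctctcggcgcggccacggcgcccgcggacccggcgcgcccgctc
Arntl: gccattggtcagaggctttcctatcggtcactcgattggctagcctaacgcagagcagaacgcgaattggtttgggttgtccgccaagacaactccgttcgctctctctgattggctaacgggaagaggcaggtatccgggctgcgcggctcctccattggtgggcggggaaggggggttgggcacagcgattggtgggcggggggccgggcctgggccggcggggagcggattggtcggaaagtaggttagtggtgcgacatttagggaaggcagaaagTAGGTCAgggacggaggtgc
The 2 D-boxes of Per3 lie 205 and 158 bases before its start and the 3 E-boxes of Ciart 116, 58 and 44 bases before. The E-boxes of Tef and Bhlhe41 lie 127 and 153 bases before the start, and TAGGTCA lies 12 bases before that of Nfil3 and 30 bases after that of Arntl. Among the clock promoters not printed, Per1 had an E-box and a D-box, 166 and 24 bases before its start, and Cry1 had an E-box 60 bases before.

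Both strands of 300-base promoters were searched for the genes that passed, and a gene counted if any of its annotated starts had the element. Among genes with a promoter in the table, E-boxes were in those of 10 of 50 genes higher at ZT10 (20%) and 7 of 65 lower (10.8%). Of all genes tested 1030 of 8588 had one (12%). D-boxes were in 5 of the 50 (10%), those of Per1, Per3, Noct, Nrg4 and Coq10b, in 1 of the 65 (1.54%) and in 245 of the 8588 (2.85%). TAGGTCA was in 1 of the 50 (2%), in 4 of the 65 (6.15%), those of Arntl, Nfil3, Leo1 and Tjp3, and in 226 of the 8588 (2.63%). The sterol element TCACNCCAC was in 0 of the 50, 0 of the 65 and 1.55% of the 8588, and the heat shock element in 0, 0 and 0.571%. These shares describe letters in a window and were not tested, and the heat shock element was taken as its 3 alternating repeats.

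Dbp, an activator of D-box genes, shared the smallest adjusted p of all genes with Per3. It held 37.4, 73.8 and 106 CPM at ZT10 against 1.67, 2.88 and 3.69 CPM at ZT22 (lowest, median and highest of 6 libraries), so that every ZT10 library exceeded every ZT22 library. The log2 difference was 4.72 ± 0.30 (SE, adjusted p = 4.48e-06), and the mean CPM was 26 times higher at ZT10. Tef, of the same family, held 577, 679 and 729 CPM at ZT10 against 163, 177 and 216 CPM at ZT22 (log2 1.91 ± 0.15, adjusted p = 1.92e-05), again without overlap. Hlf, its other member, held 53.8 to 83 CPM at ZT10 against 43.2 to 59 CPM at ZT22, overlapping, and did not pass (log2 0.38 ± 0.15, adjusted p = 0.361). Nfil3, whose protein competes for the same sites, held 3.54, 6.11 and 8.31 CPM at ZT10 against 16.3, 21.4 and 30 CPM at ZT22 (log2 -1.80 ± 0.23, adjusted p = 0.000879). The ranges of Nfil3 were apart, in the direction opposite to Dbp and Tef.

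Among the repressors, Per3 held 16.2, 26.2 and 42.3 CPM at ZT10 against 1.22, 2.19 and 2.75 CPM at ZT22 (log2 3.70 ± 0.24, adjusted p = 4.48e-06). Per2 held 18.6, 33 and 50.1 CPM at ZT10 against 4.98, 8.53 and 12.6 CPM at ZT22 (log2 1.99 ± 0.24, adjusted p = 0.000584). Per1 held 22.8, 25.8 and 31.8 CPM at ZT10 against 0.968, 5.49 and 9.92 CPM at ZT22 (log2 2.28 ± 0.37, adjusted p = 0.00491). All 3 Per genes were high in every ZT10 library and low in every ZT22 library. Ciart, which represses BMAL1 and CLOCK, was scarce, at 1.18 to 10.8 CPM at ZT10 against 0 to 0.412 CPM at ZT22 (log2 4.50 ± 0.57, adjusted p = 0.0009). Bhlhe41, which encodes the E-box repressor DEC2, held 2.98, 5.16 and 8.13 CPM at ZT10 against 0.285, 0.972 and 1.41 CPM at ZT22 (log2 2.52 ± 0.35, adjusted p = 0.00158). Both were without overlap. Bhlhe40, which encodes the related DEC1, overlapped at 29.9 to 106 CPM at ZT10 against 21.5 to 75.8 CPM at ZT22 and did not pass (log2 0.70 ± 0.26, adjusted p = 0.341).

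The 2 Cry genes, partners of PER, differed from each other. Cry1 was lower at ZT10, with 5, 6.35 and 12.4 CPM at ZT10 against 13.9, 22.6 and 31.9 CPM at ZT22 (log2 -1.65 ± 0.29, adjusted p = 0.0104), while Cry2 overlapped at 23.4 to 36.5 CPM at ZT10 against 16.3 to 28.2 CPM at ZT22 and did not pass (log2 0.54 ± 0.19, adjusted p = 0.281). Without replicate 2 of the incompletely adapted ZT10 group the adjusted p of Cry1 was 0.0513. Of the REV-ERB genes, Nr1d2 held 165, 244 and 348 CPM at ZT10 against 38.6, 46.8 and 75.5 CPM at ZT22 (log2 2.34 ± 0.21, adjusted p = 8.29e-05). Nr1d1 held 7.27, 11.2 and 19.9 CPM at ZT10 against 2.47, 3.49 and 5.03 CPM at ZT22 (log2 1.84 ± 0.31, adjusted p = 0.00738). Neither overlapped between the times. The 3′ end of Nr1d1 lies over Thra on the opposite strand, whose log2 difference was -0.70 ± 0.23 (adjusted p = 0.219), and since no strand setting is given for the counting, reads of this pair cannot be told apart. The same holds for Dbp with Sphk2 (-0.28 ± 0.17, adjusted p = 0.702) and for Ciart with C920021L13Rik. The 3′ end of Per3 lies over Camta1 on the same strand, a pair that strand could not separate. Camta1 had a mean of 2.64 CPM and a log2 difference of 0.33 (adjusted p = 0.852). Rora, a receptor on the activating side, did not pass (log2 0.32 ± 0.32, adjusted p = 0.898).

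The activators of the positive limb were low at ZT10. Npas2 had 1 count in 1 ZT10 library and 0 in the other 5, against 100 counts over the 6 ZT22 libraries, where it held 1.14, 2.48 and 3.26 CPM. Its pooled level was 84.3 times higher at ZT22, with a 95% exact interval of 14.8 to 3362 that covers counting error only. Arntl held 0.338, 0.968 and 1.98 CPM at ZT10 against 3.27, 9.95 and 20.6 CPM at ZT22 (log2 -3.10 ± 0.47, adjusted p = 0.00295). Clock held 10.3, 12.8 and 17.9 CPM at ZT10 against 22.9, 25.2 and 52.6 CPM at ZT22 (log2 -1.16 ± 0.21, adjusted p = 0.0131). None of the 3 overlapped between the times. The adjusted p of Clock was 0.0563 without replicate 2 of the incompletely adapted ZT10 group.

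**Figure D2:**
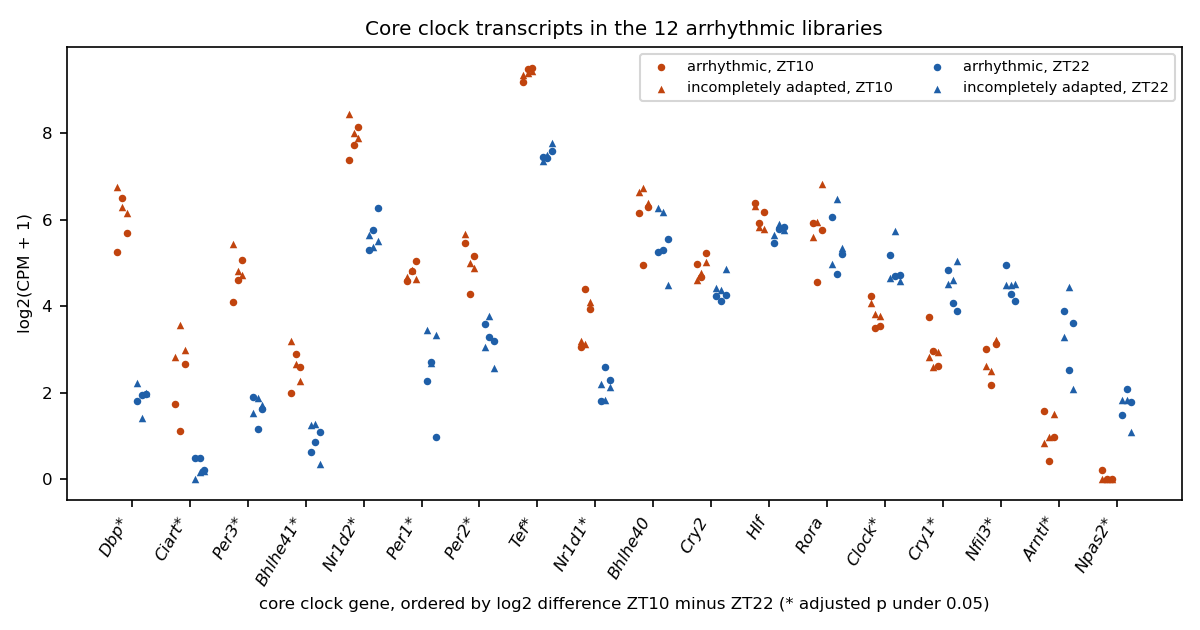
Points are the 12 libraries for each of 18 core clock genes on a log2(CPM + 1) axis, orange for ZT10 and blue for ZT22, with circles for arrhythmic and triangles for incompletely adapted feeding and an asterisk for an adjusted p under 0.05. The 9 genes on the left have every ZT10 library above every ZT22 library, the 5 on the right the reverse, and the 4 in the middle overlap.

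Known hepatic outputs of the clock moved in part: of 19 tested, 6 were higher at ZT10 (Usp2, Rgs16, Wee1, Por, Noct and Coq10b) and 3 lower (Lgalsl, Avpr1a and Leo1), where 0.598% of all genes were higher and 0.762% lower, with a median log2 difference of 0.64. Usp2, a deubiquitinase, held 28.1, 33.4 and 41.2 CPM at ZT10 against 3.23, 3.44 and 7.68 CPM at ZT22 (log2 3.04 ± 0.26, adjusted p = 5.82e-05). Rgs16, a brake on G protein signalling, held 26.8, 61 and 83.7 CPM at ZT10 against 1.24, 4.18 and 9.39 CPM at ZT22 (log2 3.65 ± 0.38, adjusted p = 0.000273). In both, the lowest ZT10 library stood above the highest ZT22 library. Wee1, a kinase that holds back mitosis, held 8.94, 11.8 and 16.6 CPM at ZT10 against 2.16, 2.74 and 5.26 CPM at ZT22 (log2 1.97 ± 0.25, adjusted p = 0.000889). Por, the electron donor of microsomal P450 enzymes and the only one of 18 xenobiotic metabolism genes that passed, held 288, 312 and 399 CPM at ZT10 against 101, 127 and 177 CPM at ZT22 (log2 1.28 ± 0.17, adjusted p = 0.00129). Lgalsl, a galectin relative, held 4.94, 6.92 and 9.47 CPM at ZT10 against 18.6, 22.2 and 28 CPM at ZT22 (log2 -1.63 ± 0.18, adjusted p = 0.000389). All 3 were without overlap. The call of Coq10b was lost in 8 and that of Leo1 in 10 of the 12 fits with 1 library left out. Alas1, the first enzyme of heme synthesis, overlapped at 35.3 to 275 CPM at ZT10 against 10.5 to 93.4 CPM at ZT22 and did not pass (log2 1.16 ± 0.45, adjusted p = 0.36).

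Away from the clock lists, the most significant gene was Ppp1r3c, which directs protein phosphatase 1 to glycogen. It held 46.2, 58.4 and 104 CPM at ZT10 against 356, 402 and 468 CPM at ZT22 (log2 -2.58 ± 0.21, adjusted p = 3.92e-05). Upp2, a uridine phosphorylase, was the most abundant of the leading genes, with 1565, 2386 and 3293 CPM at ZT10 against 205, 301 and 779 CPM at ZT22 (log2 2.74 ± 0.31, adjusted p = 0.000363). In both genes every library of one time stood above every library of the other. Chka, the first enzyme of phosphatidylcholine synthesis from choline, held 8.27, 16.5 and 29.8 CPM at ZT10 against 42.5, 107 and 186 CPM at ZT22 (log2 -2.71 ± 0.33, adjusted p = 0.000657). Elovl3, a fatty acid elongase, held 51.6, 70.9 and 145 CPM at ZT10 against 298, 458 and 822 CPM at ZT22 (log2 -2.57 ± 0.29, adjusted p = 0.000363). Slc30a10, a manganese exporter, held 16.6, 22.2 and 28.6 CPM at ZT10 against 66.4, 78.2 and 91.8 CPM at ZT22 (log2 -1.77 ± 0.20, adjusted p = 0.000363). These 3 were low at ZT10 without overlap. Clpx, a mitochondrial unfoldase, held 6.08, 8.04 and 15.6 CPM at ZT10 against 21.6, 56.1 and 66 CPM at ZT22 (adjusted p = 0.000453). Ddc, aromatic amino acid decarboxylase, held 97.1, 121 and 136 CPM at ZT10 against 271, 313 and 458 CPM at ZT22 (log2 -1.46 ± 0.17, adjusted p = 0.000542). The E3 ligase gene Dtx4 and the kinase gene Map4k4 fell by 2.09 and 1.40 on the log2 scale (adjusted p = 0.000273 and 0.000702). Higher at ZT10 were Pcsk4, a proprotein convertase, with 14.4, 20.1 and 34.6 CPM at ZT10 against 2.83, 4.29 and 6.53 CPM at ZT22 (log2 2.30 ± 0.30, adjusted p = 0.000992), and Lpin2, a phosphatidate phosphatase, with 108, 176 and 251 CPM at ZT10 against 65.2, 72.1 and 74.1 CPM at ZT22 (log2 1.34 ± 0.17, adjusted p = 0.000992). All of these had separate ranges.

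Of 21 genes of glycolysis and glycogen, Ppp1r3g and Pfkfb3 were higher at ZT10 and Ppp1r3c lower (0.598% of all genes were higher and 0.762% lower), and the median log2 difference was 0.09. Ppp1r3g, another glycogen-targeting subunit, went opposite to Ppp1r3c, with 4.46, 15.5 and 23.6 CPM at ZT10 against 0.772, 2.39 and 4.83 CPM at ZT22 (log2 2.54 ± 0.39, adjusted p = 0.00316), and its ranges overlapped slightly. Pfkfb3, which makes an activator of phosphofructokinase, held 16.5, 27.9 and 49.6 CPM at ZT10 against 4.68, 7.71 and 13.9 CPM at ZT22 (log2 1.92 ± 0.33, adjusted p = 0.00819), without overlap. Of 16 genes of gluconeogenesis and fasting (median 0.04), the FOXO factors Foxo3 (log2 0.87 ± 0.15, adjusted p = 0.00738) and Foxo1 (log2 0.62 ± 0.14, adjusted p = 0.0487) were higher and Cdkn1a lower. The call of Foxo1 was lost in 11 of the 12 fits with 1 library left out and, at an adjusted p of 0.0906, with the replicate number as a block. Cdkn1a, the cell cycle inhibitor p21, held 0.478, 1.16 and 2.33 CPM at ZT10 against 8.87, 11.1 and 32.7 CPM at ZT22 (log2 -3.53 ± 0.44, adjusted p = 0.000816), with every ZT10 library below every ZT22 library.

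Other lists held 1 to 3 genes that passed, where 1.36% of all genes did. Of 15 glucocorticoid-responsive genes, Lpin1 and Per1 were higher and Cdkn1a lower (median -0.01). Of 13 cell cycle genes, Wee1 was higher and Cdkn1a lower (median 0.23). Of 13 genes of phospholipid and choline metabolism, the ethanolamine kinase gene Etnk2 was higher (log2 0.93 ± 0.19, adjusted p = 0.0224) and Chka lower (median 0.02). Nmrk1, a nicotinamide riboside kinase, was the 1 of 16 NAD genes that passed (log2 1.35 ± 0.19, adjusted p = 0.00183). Herpud1, of ER-associated degradation, was the 1 of 19 genes of the unfolded protein response (log2 0.91 ± 0.16, adjusted p = 0.0104), and Ulk1, the kinase that starts autophagy, the 1 of 12 autophagy genes (log2 0.85 ± 0.17, adjusted p = 0.02). Hspb1, a small heat shock protein, was the 1 of 18 heat shock genes, with 3.54, 4.31 and 5.74 CPM at ZT10 against 8.23, 13.7 and 17.9 CPM at ZT22 (log2 -1.46 ± 0.21, adjusted p = 0.00239). Its near-identical pseudogene Hsp25-ps1 may share its reads (log2 -1.52 ± 0.24, adjusted p = 0.00443). Atf5 was the 1 of 10 genes of the integrated stress response, with 197, 354 and 454 CPM at ZT10 against 623, 803 and 1052 CPM at ZT22 (log2 -1.17 ± 0.22, adjusted p = 0.0168). The calls of Etnk2, Ulk1 and Atf5 were lost in 8, 4 and 2 of the 12 fits with 1 library left out.

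On the remaining lists 0 genes passed edgeR's test: PPARA targets with ketogenesis (20 tested, median -0.01), bile acids (15, 0.14), amino acid catabolism with the urea cycle (24, 0.10), acute phase (16, -0.33), the growth hormone axis (13, -0.41), immediate early genes (11, 0.09), heme and iron (17, 0.00), ribosome biogenesis (18, -0.08), SR splicing factors (12, -0.03), the respiratory chain (20, -0.01), hepatokines (15, -0.16) and cold-inducible RNA-binding proteins (2, 0.45). Over all genes 1152 had an unadjusted p under 0.05 and DESeq2 called 319. The members nearest to the threshold were Fga, the fibrinogen alpha chain, at 1133 to 1609 CPM at ZT10 against 2153 to 3216 CPM at ZT22 (log2 -0.69 ± 0.16, adjusted p = 0.0558), and Cpt1a, the gate of mitochondrial fatty acid oxidation, at 152 to 223 CPM at ZT10 against 92.1 to 145 CPM at ZT22 (log2 0.56 ± 0.14, adjusted p = 0.0727). Fga and Cpt1a did not overlap between the times.

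In cholesterol synthesis the median lay on the other side of 0 from that under night-restricted feeding. Of the 25 genes listed 1 passed, Insig2, which was lower at ZT10. Insig2, which holds SREBP in the endoplasmic reticulum, held 238, 379 and 430 CPM at ZT10 against 993, 1611 and 2240 CPM at ZT22 (log2 -2.18 ± 0.24, adjusted p = 0.000363), without overlap. Of the 25 log2 differences 18 were positive, with a median of 0.22, while 5285 of all 11547 genes were positive. The medians of the 25 were -0.39 under night-restricted and 0.04 under ad libitum feeding. With the GC trend of each library as a covariate 5 of the 25 were higher and 1 lower (4.98% of all genes passed there).

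The arrhythmic and night-restricted differences were then set against each other in 1 model of 24 libraries. Replicate 1 of the night-restricted ZT22 group stood apart from replicates 2 and 3, with 1.91% of counts from mitochondrial transcripts against 5.8% and 5.04%, and a GC trend of 0.524 against -0.0856 and -0.109, so values without it are given too. Insig1, an SREBP target whose product does the same work as that of Insig2, was the only gene of 12235 past the threshold (0.00817%). It held 65.3, 90.7 and 99.7 CPM at ZT10 against 51.9, 62.4 and 70.4 CPM at ZT22 in the arrhythmic paradigms, where the ranges overlapped, and 51.8 ± 9.83 against 97.5 ± 29.1 CPM (SD, n = 3) under night-restricted feeding. The log2 differences were 0.53 ± 0.13 (adjusted p = 0.0743) and -0.98 ± 0.19 (adjusted p = 0.00532). They differed by 1.52 ± 0.24 (adjusted p = 0.0316). With each of the 24 libraries left out this value stayed between 1.36 and 1.62, with an adjusted p between 0.0227 and 0.226, and it passed in 7 of the 24 fits. Without replicate 1 of the night-restricted ZT22 group it was 1.60 ± 0.24 (adjusted p = 0.0227). The call ended with the replicate number as a block (adjusted p = 0.0866) and with no filter on low counts (adjusted p = 0.164).

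Insig1 was 1 of 11 of the 25 cholesterol genes with an unadjusted p under 0.05 in this test, and in all 11 the arrhythmic value was the greater, while 4.81% of all genes had such a p and 2.33% had it in that direction. It was 11 of the 25 also without replicate 1 of the night-restricted ZT22 group (2.6% of all genes in that direction), where the median difference of the 25 was 0.68, against 0.75 with it. The other 10 missed the adjusted threshold in this model. Lss, lanosterol synthase, had log2 differences of 0.68 ± 0.19 in the arrhythmic and -1.20 ± 0.30 in the night-restricted libraries (adjusted p of the difference 0.139, and 0.00128 by DESeq2, 0.0146 with all 72 libraries and 0.0126 with the GC covariate). Fdps, which makes farnesyl diphosphate, had 0.28 ± 0.23 and -1.53 ± 0.38 (adjusted p 0.376, and 0.0364 by DESeq2 and 0.0382 with all 72 libraries). Msmo1, a sterol C4 methyl oxidase, had 0.81 ± 0.19 and -0.28 ± 0.24 (adjusted p 0.379). Without replicate 1 of the night-restricted ZT22 group the differences of Lss, Fdps and Msmo1 were 2.04, 1.37 and 1.12. With it they were 1.90, 1.82 and 1.10. Their adjusted p without it was 0.113, 0.562 and 0.446 by edgeR's test. Against ad libitum feeding 2 of the 25, Lss and Insig1, had an unadjusted p under 0.05, again with the arrhythmic value the greater (1.37% of all genes in that direction). Lss was at 0.68 against -0.36 (difference 1.06 ± 0.36) and Insig1 at 0.53 against -0.08 (difference 0.62 ± 0.23), both with an adjusted p of 0.972.

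Of 22 genes listed under lipogenesis, Lpin1 and Lpin2 were higher at ZT10 and 0 were lower (0.598% and 0.762% of all genes). Most serve fatty acid and triglyceride synthesis, but the list also holds the lipase gene Pnpla2. Lpin1, which encodes lipin 1, held 118, 147 and 261 CPM at ZT10 against 32.4, 46.1 and 84.7 CPM at ZT22 (log2 1.84 ± 0.27, adjusted p = 0.00266), without overlap. The median log2 difference of the 22 was 0.32, against -0.53 under night-restricted and -0.36 under ad libitum feeding. Against night-restricted feeding 8 of the 22 had the greater and 3 the smaller value in the arrhythmic paradigms at an unadjusted p under 0.05 (2.33% and 2.48% of all genes), and against ad libitum feeding 8 and 1 (1.37% and 2.21%). Fasn, fatty acid synthase, had 0.51 ± 0.52 in the arrhythmic, -2.77 ± 0.70 in the night-restricted and -1.24 ± 0.67 in the ad libitum libraries (adjusted p of the differences 0.376 and 0.972). Its level varied widely, at 2399 ± 1215 CPM (SD over 6 libraries) at ZT10 and 1852 ± 1544 CPM at ZT22, and under night-restricted feeding it held 5904, 1055 and 1239 CPM in replicates 1 to 3 of ZT22. The library that stood apart holds the highest of these. Without it the difference of Fasn from night-restricted feeding was 1.73 ± 0.68 in place of 3.28 ± 0.84, and with the GC covariate 2.41 ± 0.35 (adjusted p = 0.00257). Without it the median difference of the 22 was 0.27 in place of 0.61, with 6 greater and 4 smaller at an unadjusted p under 0.05 (2.6% and 3.42% of all genes). Acly, the source of cytosolic acetyl-CoA, had 0.36 ± 0.26, -1.76 ± 0.38 and -1.07 ± 0.37. Pnpla2, a triglyceride lipase, was positive in all 3, at 0.43 ± 0.15, 1.49 ± 0.21 and 1.13 ± 0.21. When the GC trend entered the model, 26 genes differed from night-restricted feeding (0.213%). Among them were Insig1, Lss and Pmvk of cholesterol synthesis and Fasn, Gpam and Pnpla2 of the lipogenesis list. In replicates 1 to 3 of the night-restricted ZT22 group Pmvk held 702, 240 and 270 CPM and Gpam 20.2, 5.04 and 10.6 CPM. Without replicate 1, and without the covariate, their differences were 0.68 ± 0.47 and 1.74 ± 0.66. With it they were 1.59 ± 0.56 and 2.56 ± 0.71. The differences of Insig1, Lss and Pnpla2 were larger in size without that replicate. Others of the 26 were Ppp1r3b, a glycogen-targeting subunit (difference 2.12 ± 0.39, adjusted p = 0.0256 in that fit), and the tubulin genes Tuba1c, Tuba4a and Tubb4b. From ad libitum feeding 5 genes differed in that model (0.0409%), Fasn, Thrsp, Tuba1c, Pcbp4 and Prkd3. Without the covariate the differences of Thrsp and Tuba1c were 1.22 and 0.72 in place of 2.18 and 1.24. Their unadjusted p by edgeR's test was then 0.203 and 0.199, and that of Fasn, Pcbp4 and Prkd3 was under 0.05.

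**Figure D3:**
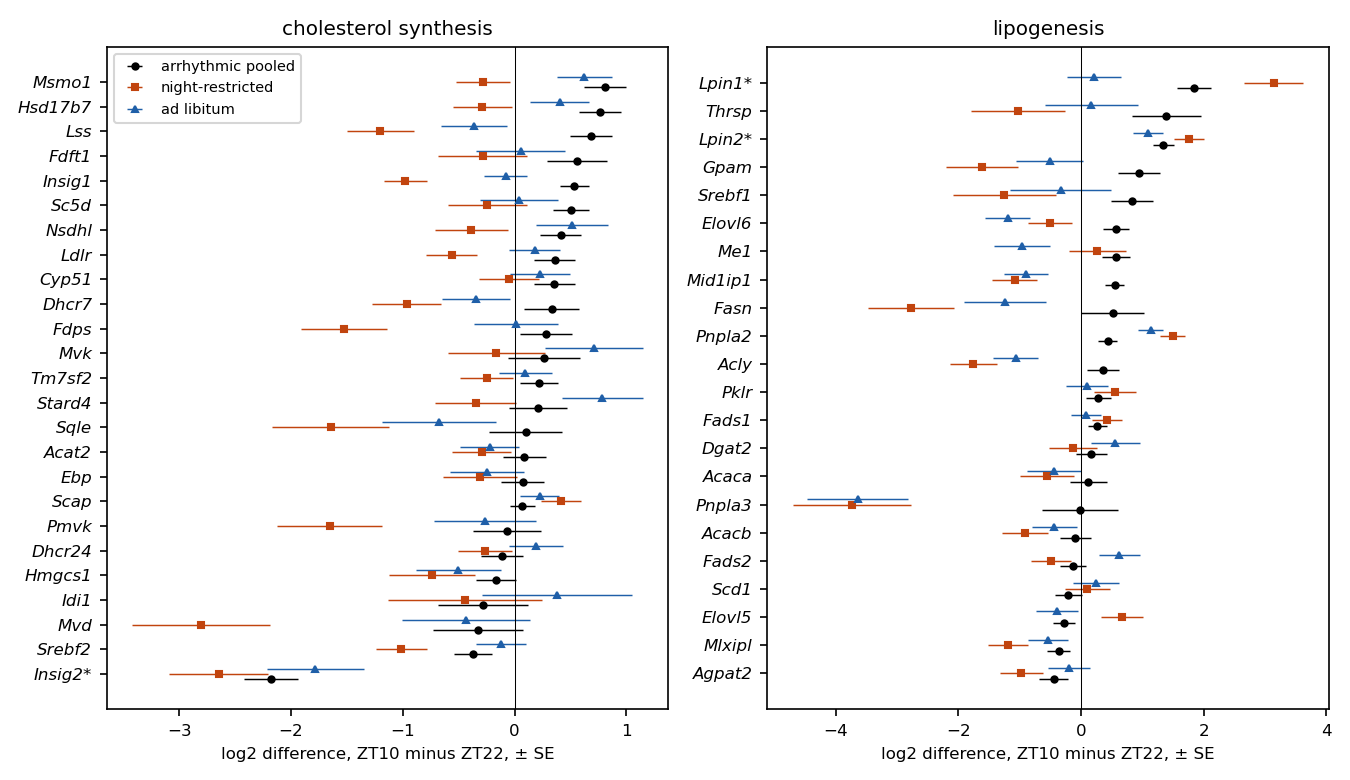
Symbols are log2 differences, ZT10 minus ZT22, with their SE for 25 cholesterol and 22 lipogenesis genes, black circles for the arrhythmic paradigms (6 against 6 libraries), orange squares for night-restricted and blue triangles for ad libitum feeding (3 against 3 each), and an asterisk marks an adjusted p under 0.05 in the arrhythmic paradigms. In the cholesterol panel every black point but that of Scap lies to the right of the orange one, and Lss and Insig1 lie right of 0 in black and left of it in orange.

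Most of the 157 genes had the same direction under the other paradigms, in libraries that did not choose them but shared a model, and so an estimate of spread, with those that did. Of the 69 higher at ZT10, 68 were also positive under night-restricted and 68 under ad libitum feeding, and 53 and 39 passed there (4.57% and 1.13% of 12235 genes passed in either direction). Of the 88 lower genes 88 and 87 were negative, and 71 and 43 passed. Over all 11547 genes 71.1% and 56.5% had the same sign. The medians of the 69 were 1.28 in the arrhythmic, 1.63 in the night-restricted and 1.36 in the ad libitum libraries, and those of the 88 were -1.41, -1.95 and -1.33. Against ad libitum feeding 0 genes differed by edgeR's test, with 438 at an unadjusted p under 0.05, and DESeq2 called 1, Pcbp4. The tests against both paradigms share the 12 arrhythmic libraries. In simulated data they recovered 5% and 3% of differences of 1 log2 unit and 64% and 69% of those of 2, so a difference of 1 log2 unit was mostly not detectable.

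Core clock genes were compared in size in the same way. Against ad libitum feeding 6 of the 18 had an unadjusted p under 0.05 (3.58% of all genes), and each had an adjusted p of 0.972. Nr1d1 was the nearest to a call, at 1.84 ± 0.31 against 4.56 ± 0.71 (difference -2.71 ± 0.81, unadjusted p = 0.00319). Nr1d2 (2.34 against 3.55), Dbp (4.72 against 6.00), Cry2 (0.54 against 1.23) and Arntl (-3.10 against -5.56) were also nearer 0 in the arrhythmic paradigms. Per2 was farther from 0, at 1.99 against 0.36. Against night-restricted feeding the 3 genes with such a p were Cry1 (-1.65 against -2.93), Arntl (-3.10 against -5.63) and Bhlhe41 (2.52 against 4.50), all nearer 0 in the arrhythmic paradigms. Levels of Arntl at ZT10 were near the floor, at 0.173 ± 0.0529 CPM under night-restricted and 0.162 ± 0.144 CPM under ad libitum feeding (SD, n = 3). Bhlhe41 was at 0.287 ± 0.394 CPM at ZT22 under night-restricted feeding. The comparator differences of these 2 genes therefore rest on few counts.

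**Figure D4:**
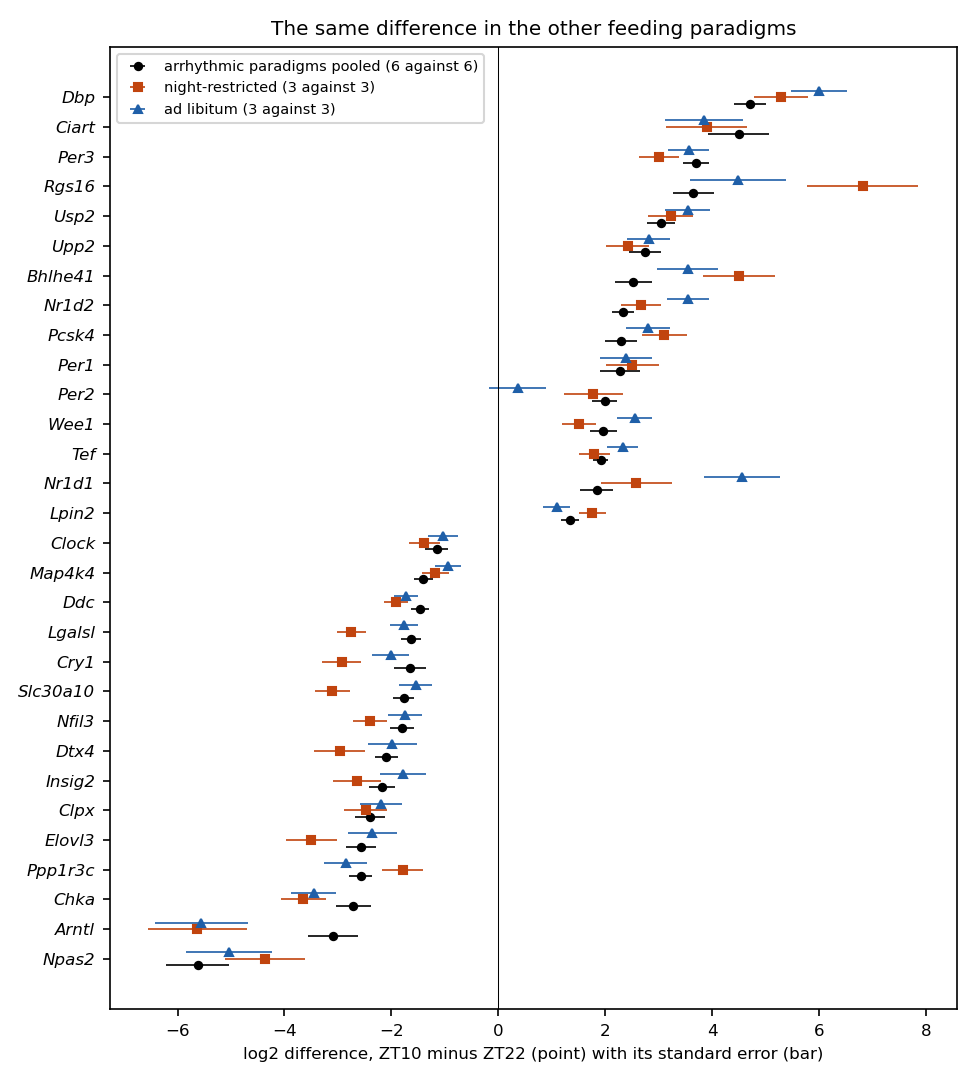
Symbols are log2 differences, ZT10 minus ZT22, with their SE for the core clock genes that passed and the other most significant genes, black circles for the arrhythmic paradigms (6 against 6 libraries), orange squares for night-restricted and blue triangles for ad libitum feeding (3 against 3 each). Every gene lies on 1 side of 0 in all 3, and Nr1d1 and Arntl lie nearer 0 in black than in blue. Arntl was near the floor at ZT10 under ad libitum feeding.

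The other 4 times of the arrhythmic paradigms, 24 further libraries, placed both times in the day. The genes were chosen by the 12 libraries of ZT10 and ZT22, and this choice fixes in part which time has the highest mean. Of the 69 genes, 52 had it at ZT10, 10 at ZT14 and 7 at ZT06, and of all 11547 genes 2223, 737 and 1673. Of the 88 genes, 56 had it at ZT22, 19 at ZT02 and 13 at ZT18, and of all genes 2750, 2127 and 2037. At the pairs of times 12 h apart that the choice of genes did not use, 57 of the 69 were higher at ZT06 than at ZT18, as were 7464 of all 11547 genes, and 61 were higher at ZT14 than at ZT02, as were 3354 of all. Of the 88, 78 were lower at ZT06 than at ZT18, as were 4083 of all genes, and 77 lower at ZT14 than at ZT02, as were 8193. The median log2(CPM + 1) differences were 0.40 and 0.71 for the 69, -0.52 and -0.75 for the 88, and 0.10 and -0.13 for all genes.

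Levels through the day set some genes apart by paradigm, a comparison that was not tested. In the arrhythmic paradigms Dbp was at 75.1 ± 30.3 CPM (SD over 6 libraries) at ZT06 and 72 ± 25.1 CPM at ZT10, while the means at the 2 times were 57.7 ± 18.8 and 97.8 ± 45.5 CPM under night-restricted and 40.2 ± 6.56 and 107 ± 36.8 CPM under ad libitum feeding (SD over 3 libraries). Per2 was at 24.2 ± 13.5 CPM at ZT06 in the arrhythmic paradigms and at 8.22 ± 9.76 and 7.84 ± 2.58 CPM in the others, and at ZT14, where its means were highest, at 42.9 ± 18.8, 72.2 ± 6.65 and 59.1 ± 14.5 CPM. Insig1 had its highest mean at ZT06 in the arrhythmic paradigms, at 105 ± 20.5 CPM, at ZT18 under night-restricted feeding, at 109 ± 29 CPM, and at ZT02 under ad libitum feeding, at 95.1 ± 12.8 CPM.

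**Figure D5:**
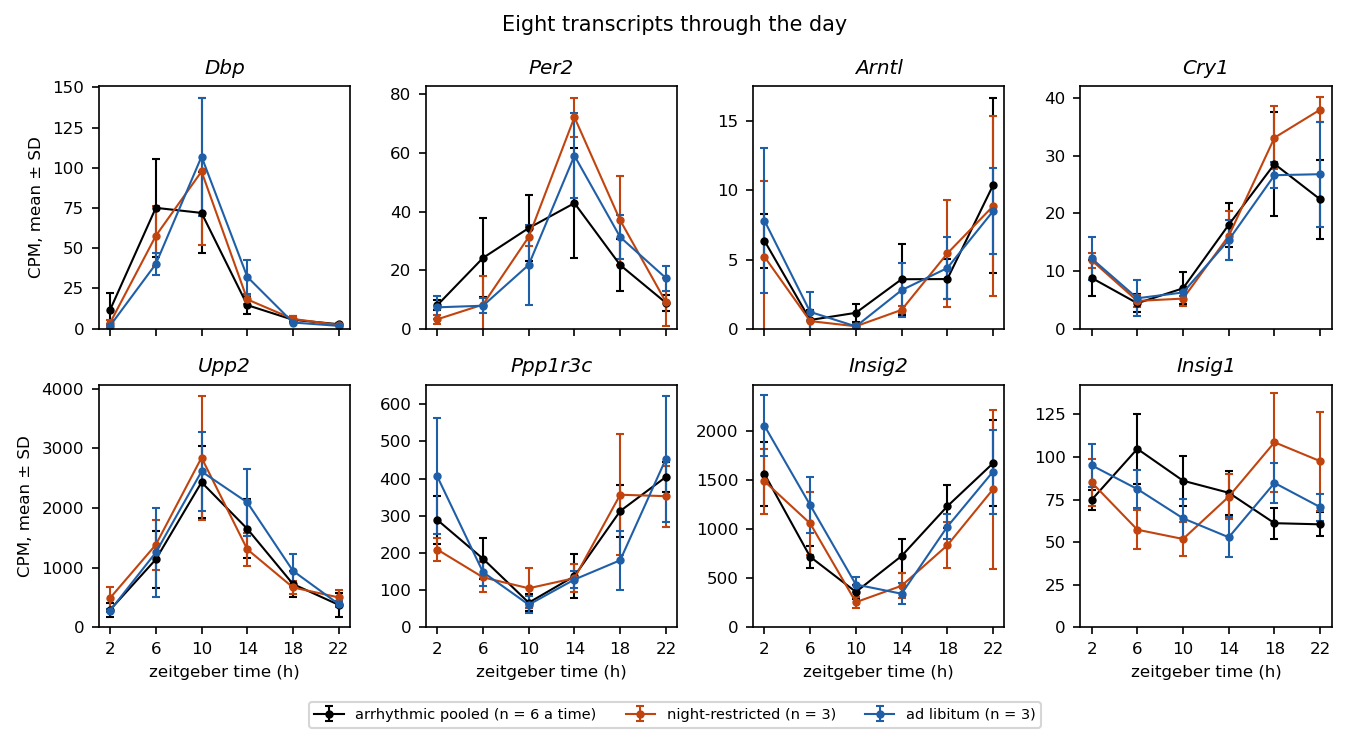
Points and bars are the mean CPM and SD by zeitgeber time for 8 genes, black for the arrhythmic paradigms (n = 6 a time), orange for night-restricted and blue for ad libitum feeding (n = 3 a time). Dbp, Per2 and Upp2 stood higher at ZT10 than at ZT22 and Arntl, Cry1, Ppp1r3c and Insig2 lower in all 3, and Insig1 peaked at ZT06 in black, at ZT18 in orange and at ZT02 in blue.

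Each arrhythmic paradigm was also fitted alone, with 3 against 3 libraries. In arrhythmic feeding 10 genes passed (0.0916%) and in incompletely adapted feeding 9 (0.0801%), with Dbp and Per3 in both. Of the 10, 9 had the same sign in the other paradigm and all 10 an unadjusted p under 0.05 there (6.3% of all genes). Of the 9, 8 had the same sign and such a p in arrhythmic feeding (7.55%), and Ciart, the other, was below the minimum of counts there. Bcl6, a transcriptional repressor, was the 1 gene that changed sign. It held 53.9, 66.8 and 105 CPM at ZT10 and 10.2, 10.2 and 13.7 CPM at ZT22 in arrhythmic feeding (log2 2.87 ± 0.34, adjusted p = 0.0227). In incompletely adapted feeding it held 4.36, 10.7 and 12.8 CPM at ZT10 and 9.29, 46.7 and 78.7 CPM at ZT22 (log2 -2.33 ± 0.74, adjusted p = 0.64), so the ranges were apart in the former and overlapped in the latter. The test of a difference between the paradigms called 0 genes by edgeR, with 321 at an unadjusted p under 0.05 (2.78%). Bcl6 had the smallest p there (difference -5.18 ± 0.91, unadjusted p = 8.87e-05, adjusted p = 0.784), and it was the 1 gene that DESeq2 called (adjusted p = 1.93e-05). In simulated data this test recovered 2% of differences of 1 log2 unit and 39% of those of 2. Bcl6 lies outside the rule for named genes and was chosen after its values were seen.

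Markers of other cell types gave few differences with time. All 8 Kupffer cell markers had negative log2 differences, with a median of -0.35, and 0 passed. They summed to 558 to 1119 CPM at ZT10 and 596 to 1589 CPM at ZT22. In whole tissue, fewer cells of a type and less RNA per cell cannot be told apart. Of 5 cholangiocyte markers 2 were abundant enough to test, and Sox9, a transcription factor of bile duct cells, held 7.42, 10.1 and 12.1 CPM at ZT10 against 18.4, 26.1 and 32.2 CPM at ZT22 (log2 -1.27 ± 0.18, adjusted p = 0.00185), without overlap. The other marker tested did not pass, and the median log2 difference of the 2 was -0.73. The 5 summed to 13.3 to 19.6 CPM at ZT10 and 21.9 to 40.8 CPM at ZT22, sums that include Sox9. Their medians were 17 and 32.3 CPM, of which Sox9, with medians of 10.1 and 26.1 CPM, was a large part. Of the 6 hepatocyte, 7 endothelial, 7 stellate and fibroblast, 5 erythroid, 2 neutrophil, 1 B and plasma cell and 1 adipocyte markers tested 0 passed, and 0 markers of T and NK cells or acinar cells reached the minimum of counts. Endothelial markers summed to 259 to 343 CPM at ZT10 and 288 to 386 CPM at ZT22 and stellate markers to 173 to 276 CPM at ZT10 and 190 to 299 CPM at ZT22. The neutrophil markers S100a8 (log2 -1.50 ± 0.37, adjusted p = 0.0689) and S100a9 (log2 -1.45 ± 0.49, adjusted p = 0.258) were near the floor, and all 4 neutrophil markers summed to 1.98 to 2.74 CPM at ZT10 and 3.99 to 15 CPM at ZT22. The part of these cells in the differences above was not tested.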

How the data were processed

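Liver RNA of 72 libraries was sequenced from transcript 3′ ends and deposited by the authors as raw read counts for 51912 genes. Alignment used STAR 2.4.2a with mm10 and GRCm38.p5, per the submitters' processing notes. Those notes name no counting tool, strand setting or annotation. A second deposited table, named TPM by the authors, holds CPM: its values equal the raw counts scaled to each library's total, with a largest difference of 5.09e-11, for the 11508 genes that exceed 1 CPM in 36 or more libraries. All tests used the raw counts. Gene symbols were found for 51719 genes, and the 193 without one held 0.00309% of counts.

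Counts were filtered with filterByExpr, scaled by TMM and tested with edgeR 4.0.16 (robust quasi-likelihood, R 4.3.3, limma 3.58.1), with Benjamini-Hochberg adjustment over all genes tested and a threshold of 0.05. The comparison of ZT10 with ZT22 used 12 libraries, with a term for the paradigm. The difference between the arrhythmic paradigms was its interaction term, and differences from night-restricted and ad libitum feeding were contrasts in a model of 24 libraries. Values printed per library are CPM of the raw counts. Totals of the 12 libraries were between 5925470 and 7859398 counts, and those of the 24 between 4342026 and 9419868. Single library measures of the 12 were compared by exact permutation within paradigms.

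Members and gene lists were chosen with earlier results of these data known. Named genes were the core clock, the 10 of smallest p in each direction with at least 10 CPM, up to 4 genes that passed from each list, or 2 of smallest p where none did, and up to 5 called in each direction by each test of a difference. Some genes of the core clock and of cholesterol synthesis are not reported here, and the lists and their counts leave them out. Other genes given with values were chosen after these were seen. Alternatives were RLE size factors, DESeq2 1.42.0, 2 other filters, each library left out, the replicate number as a block, a covariate for GC, all 72 libraries and each paradigm alone. Thinning to 5925470 counts and leaving out the 2 libraries of extreme GC trend were chosen after seeing the data. The GC trend of a library was the slope of its log2(CPM + 1) deviations on the GC content of the last 500 bases of transcripts, over 6436 genes averaging 10 CPM or more. On simulated counts the pooled test recovered 51% of changes of 1 log2 unit and 95% of those of 2 among 11381 genes, with 7.01% of calls false. Promoters were matched by symbol in a RefSeq table, for 8588 of the 11547 genes tested. Tables were made with Python 3.11.15, pandas 2.3.3, numpy 2.4.6 and scipy 1.17.1.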

Additional observations from a re-analysis of the deposited data

Results flagged for a closer look

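A library that stood apart from the other 5 of its time was looked for in 174 groups of 6 libraries, by the gap to the nearest library as a share of the whole range (Dixon's criterion at 95%), and 17 groups had one. Chance alone gives about 1 in 20. In the genes that passed, Cry1 reached 12.4 CPM in replicate 1 of the arrhythmic ZT10 group (others 5 to 6.75), and Upp2 779 CPM in replicate 1 of the arrhythmic ZT22 group (others 205 to 393). Usp2 was at 7.68 CPM in replicate 3 of the incompletely adapted ZT22 group (others 3.23 to 4.24) and Ulk1 at 519 CPM in replicate 1 of the incompletely adapted ZT10 group (others 265 to 352). Npas2 was at 0.165 CPM in replicate 1 of the arrhythmic ZT10 group, which is 1 count, and a single count among libraries at 0 meets this criterion by construction.

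Among genes that did not pass, replicate 1 of the incompletely adapted ZT22 group was high for Fga, at 3216 CPM, and S100a8, at 8.65 CPM, and replicate 2 of that group for Tra2a, at 31.0 CPM, and Cyp7b1, at 105 CPM. Replicate 3 of that group was high for Cry2, at 28.2 CPM, and Cox4i1, at 350 CPM. Replicate 1 of the incompletely adapted ZT10 group was high for Srsf3, at 121 CPM, and Uqcrb, at 707 CPM, and low for Pecam1, at 38.9 CPM. Replicate 1 of the arrhythmic ZT10 group was high for Rbm3, at 34.1 CPM, replicate 2 for Angptl4, at 327 CPM, and replicate 1 of the arrhythmic ZT22 group was low for Clec4g, at 21.9 CPM.

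Insig1 differed between the pooled arrhythmic and the night-restricted contrast, by 1.52 log2 units (SE 0.24, edgeR interaction contrast, adjusted p = 0.0316).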

How the results depend on the processing

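Against 69 genes higher and 88 lower at ZT10, DESeq2 gave 160 and 159, the GC trend as a covariate 276 and 299, all 72 libraries 138 and 153, arrhythmic libraries alone 6 and 4, and incompletely adapted libraries alone 6 and 3. Without the 2 libraries of extreme GC trend, an alternative chosen after seeing the data, 130 genes were higher and 104 lower. With each library left out, 50 to 117 were higher and 46 to 125 lower. The difference between the arrhythmic paradigms (0 genes) gave 1 with DESeq2 and 0 to 1 with a library left out. The difference from night-restricted feeding (1 gene) gave 33 with DESeq2, 26 with the GC covariate, 21 with all 72 libraries, 0 with no filter on low counts and 0 to 2 with a library left out. That from ad libitum feeding (0 genes) gave 1 with DESeq2, 5 with the GC covariate, 1 with all 72 libraries and 0 to 1 with a library left out. The cause of these shifts was not tested, except that each paradigm alone had fewer samples. Of 44 named genes that passed, 38 kept their direction and call in all 21 alternatives that used both paradigms, and 0 changed sign.

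With the replicate number within a paradigm as a block, 68 genes were higher and 79 lower, 132 of the 147 shared with the fit without it, and 0 genes differed from night-restricted feeding. The main fits did not take the numbers as pairs, because the labels do not state a pairing. Deviations of same-numbered ZT10 and ZT22 libraries correlated at 0.284, 0.503 and 0.513 in arrhythmic and 0.562, -0.115 and 0.553 in incompletely adapted feeding, over 6538 genes. As a hint from the data, not the design, 10 of the 12 arrhythmic libraries correlated best with their own number. Under ad libitum feeding the correlations were 0.203, 0.439 and 0.435, and under night-restricted feeding -0.162, -0.493 and 0.512. There replicates 1 and 2 of ZT10 correlated best with other numbers, at 0.208 and 0.647. The hint thus does not extend to the block in the test against night-restricted feeding. Depth limits rare transcripts such as Npas2, Ciart, Arntl and Bhlhe41.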
